A study of Mus musculus with 22 samples.

Results

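The 10 genes described here encode inhibitors of signalling through receptor tyrosine kinases and the MAP kinases ERK, JNK and p38, and not all of them act on ERK alone. The set holds 3 Sprouty genes (Spry1, Spry2 and Spry4), 2 Spred genes (Spred1 and Spred2) and 5 dual-specificity phosphatase genes (Dusp1, Dusp4, Dusp5, Dusp6 and Dusp26). They are 10 of the 52327 genes in the count table. They were chosen by name for this function, with earlier results of these libraries known, and which of their values entered the choice was not recorded. Their levels and differences are therefore given as a description, and the p-values place each difference against the spread between mice without independent support for the choice of genes.

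RNA was measured in pancreatic β-cells isolated by flow cytometry, with 1 library for each of 22 male mice aged 3 months on a mixed background. Every mouse, controls included, was GluDTR+, SstDTR htz and PpyDTR htz, that is, carried receptors for diphtheria toxin under names that refer to glucagon, somatostatin and pancreatic polypeptide, the hormones of α-, δ- and γ-cells. The groups were refed DT (n = 6, mice 13, 14, 15, 16, 17 and 20), refed control (n = 5, mice 12, 18, 19, 21 and 22), fasted DT (n = 6, mice 6 to 11) and fasted control (n = 5, mice 1 to 5), where DT stands for diphtheria toxin, which removes the cells that bear its receptor. Cells were taken 1 month after ablation, following an 8 h fast, or the same fast and then 2 h of refeeding. The labels leave unstated whether controls were given a toxin-free injection. Behind the design is the question of what β-cells do in islets without their endocrine neighbours.

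Growth factors and insulin act on receptor tyrosine kinases, which pass the signal through Ras, RAF and MEK to ERK1 and ERK2. Active ERK switches on genes whose products then damp the same path: Sprouty and Spred proteins act upstream, at the level of Ras and RAF, and DUSP phosphatases remove the activating phosphates from ERK or from the related kinases JNK and p38. In β-cells, glucose and depolarisation are known to activate ERK, and several feedback transcripts are used as a readout of the path's recent activity.

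Total counts per library lay between 16584117 and 24988880. The insulin genes Ins1 and Ins2 took 40.3% to 51.1% of the counts in 21 libraries and 69.4% in the library of refed DT mouse 13, whose scaling factor was 0.566. That library and refed DT mouse 20 also had the largest shares of mitochondrial transcripts, at 1.36% and 1.59%, so results whose call changes without them are given both ways, beside other values that moved. Summed δ-cell markers had medians of 18.3 CPM in refed DT, 67.3 CPM in refed control, 16.5 CPM in fasted DT and 44.3 CPM in fasted control mice. The γ-cell marker Ppy had medians of 13.5 CPM in refed DT, 31.0 CPM in refed control, 3.45 CPM in fasted DT and 10.6 CPM in fasted control mice. Summed α-cell markers, which include genes that β-cells also express, had medians of 632 CPM in refed DT, 529 CPM in refed control, 372 CPM in fasted DT and 452 CPM in fasted control mice.

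Levels are given as counts per 1000000 of TMM-scaled library size (CPM, mean ± SD), and differences as log2 fold changes ± SE from 1 fit over all 14064 tested genes. A gene is called where its adjusted p is under 0.05 (edgeR quasi-likelihood test, Benjamini-Hochberg). Of the 10 genes, 9 were tested, and Spry1 was too low to pass the filter on low counts. The filter asks for a minimum level in as many libraries as the smallest group holds, from whichever groups. A gene that reaches it in 1 group only can therefore pass, and the 9 tested genes are not the full set.

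RefSeq windows upstream of the annotated start (build GRCm38.p6) were found for 7 of the 10 genes, and not for Spry4, Dusp4 and Dusp26. The 250 bases before the start are shown for Dusp6, the member with a window that was called after refeeding, and for Dusp1 and Dusp5, phosphatases at a high level that were not called. They lie at chr10:99262981-99263230 (plus strand, Dusp6), chr17:26508473-26508722 (minus strand, Dusp1) and chr19:53528895-53529144 (plus strand, Dusp5). Capitals mark matches on either strand to TGACGTCA (a cAMP response element), TGANTCA (AP-1), GGAAGT (ETS), CACGTG (E-box) and the CArG box bound by serum response factor.
Dusp6: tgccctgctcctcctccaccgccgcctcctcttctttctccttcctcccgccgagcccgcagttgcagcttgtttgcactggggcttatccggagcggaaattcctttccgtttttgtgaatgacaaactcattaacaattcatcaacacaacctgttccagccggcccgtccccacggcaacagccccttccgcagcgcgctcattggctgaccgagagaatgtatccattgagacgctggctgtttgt
Dusp1: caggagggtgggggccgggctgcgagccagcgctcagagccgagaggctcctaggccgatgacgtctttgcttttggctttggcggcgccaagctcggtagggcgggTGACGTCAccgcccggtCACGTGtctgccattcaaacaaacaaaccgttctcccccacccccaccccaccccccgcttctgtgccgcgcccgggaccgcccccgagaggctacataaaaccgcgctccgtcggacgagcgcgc
Dusp5: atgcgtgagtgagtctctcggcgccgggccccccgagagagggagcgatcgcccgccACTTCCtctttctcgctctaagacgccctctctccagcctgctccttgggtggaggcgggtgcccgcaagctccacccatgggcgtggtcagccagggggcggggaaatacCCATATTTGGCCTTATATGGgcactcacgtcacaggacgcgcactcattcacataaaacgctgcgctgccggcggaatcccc
The Dusp1 window holds the full cAMP response element at positions -143 to -136 from the start and an E-box at -126 to -121. The Dusp5 window holds 2 CArG boxes side by side, at -82 to -73 and at -72 to -63, and an ETS match on the other strand at -193 to -188. The Dusp6 window has none of these letters. Among 32851 RefSeq windows of 300 bases, which reach 50 bases past the start, 1.79% hold the cAMP response element, 7.81% the AP-1 motif, 23.8% the ETS motif, 7.15% the E-box and 1.63% a CArG box. These are matches of letters, and binding was not measured.

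Averaged over DT and control mice, Spry4, Dusp6 and Dusp4 were called higher and Dusp26 was called lower in refed than in fasted mice, while Spry2, Spred1, Spred2, Dusp1 and Dusp5 were not called. The 4 calls among 9 tested genes stand beside 38.9% of all tested genes called in the same comparison (17.2% higher and 21.7% lower), so their number is near the background, and the size and direction of single genes carry the description. In DT mice alone 3 members were called higher and 1 lower, beside 24.4% of all tested genes (10.8% higher and 13.5% lower). In control mice alone 2 were called higher and 1 lower, beside 23.3% (10.9% higher and 12.3% lower). The median log2 fold change of the 9 genes in the average feeding effect was 0.15, against -0.06 over all tested genes. In bulk libraries, a higher share of cells that express a gene and more of its RNA per cell cannot be told apart.

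Spry4 (chromosome 18, 38586247 to 38601347) encodes a Sprouty protein that restrains Ras and RAF activation. Its level in refed DT mice was 6.81 to 17.9 CPM with a median of 11.3 CPM. Refed control mice had 9.17, 13.2, 9.96, 10.7 and 15.1 CPM. All 11 refed mice were above all 11 fasted mice, which 2.07% of tested genes also showed. Fasted DT mice had 0.106 to 2.73 CPM with a median of 0.641 CPM, and fasted control mice 1 to 5 had 0.0482, 2.68, 2.53, 0.0474 and 0.25 CPM. Fasted mice thus ran from below the detection limit of 3 counts, which lay at 0.120 to 0.179 CPM in fasted libraries, up to 2.73 CPM, and 3 fasted libraries held fewer than 3 Spry4 counts.

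The log2 fold change of Spry4, refed minus fasted, was 3.45 ± 0.71 in DT mice (edgeR, adjusted p = 0.00134) and 3.40 ± 0.77 in control mice (edgeR, adjusted p = 0.00312). Between DT and control mice the difference was 0.00 ± 0.65 after refeeding and -0.05 ± 0.74 in the fasted state. The size of the feeding difference in control mice depends on how the lowest fasted libraries are weighed: it was 4.89 with limma voom, 3.99 without fasted control mouse 2 and 4.003 without fasted control mouse 3, the mice with the highest Spry4 levels of their group.

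**Figure D1:**
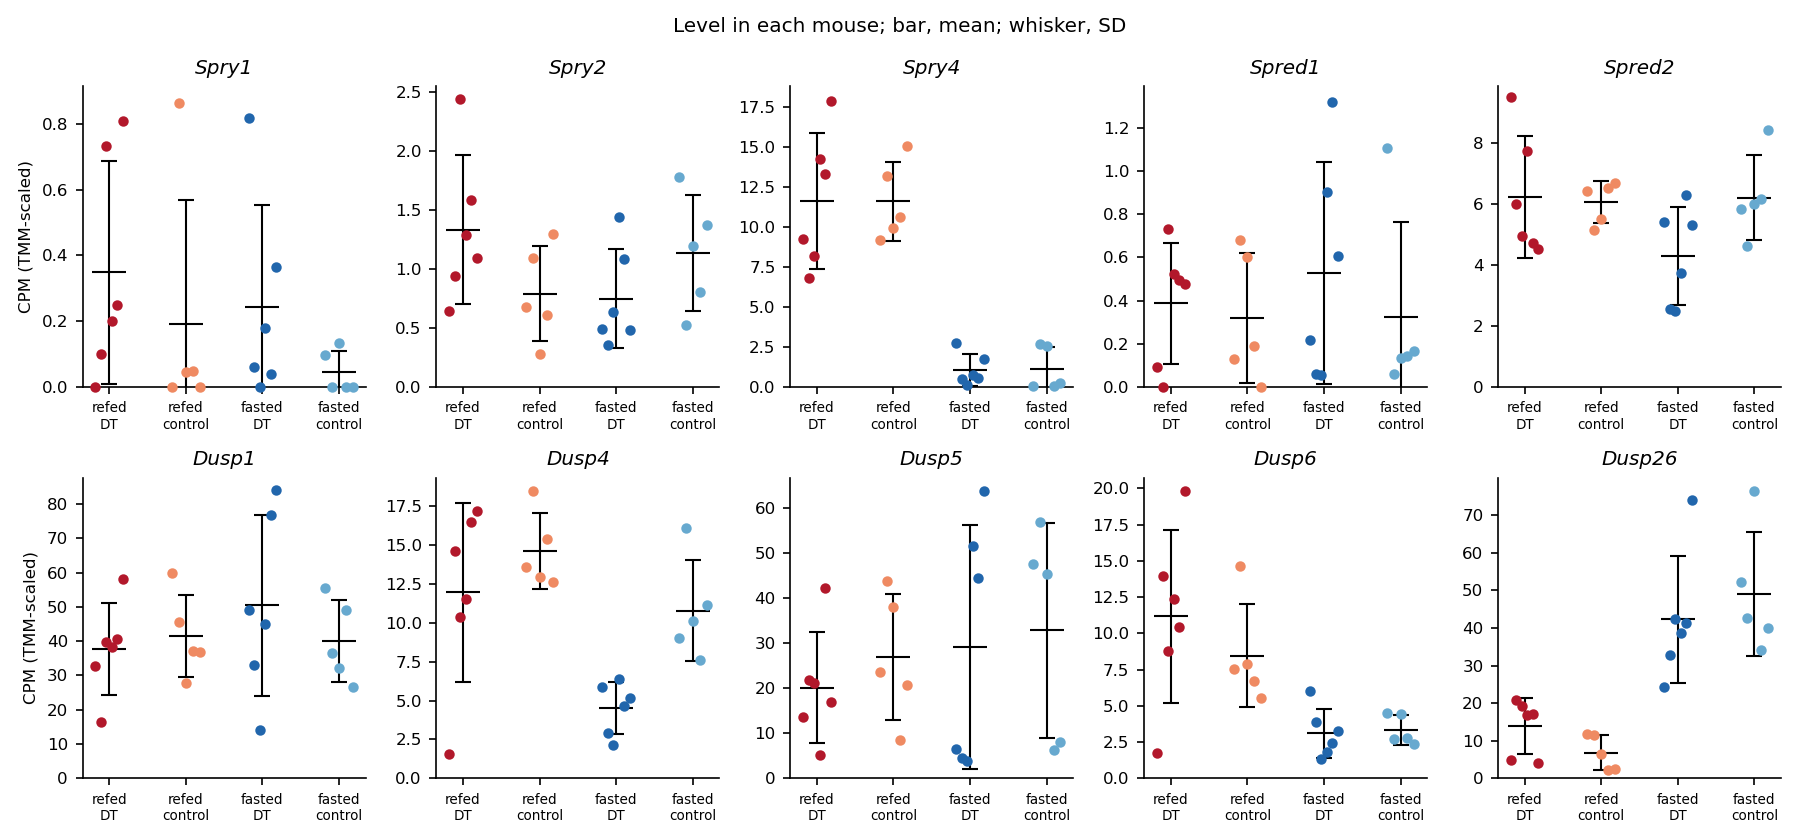
Level of each of the 10 genes in every mouse, in CPM with TMM-scaled library sizes, for refed DT, refed control, fasted DT and fasted control mice; bars are means and whiskers are SDs, cut at 0. Spry4 separated the 11 refed from the 11 fasted mice upward and Dusp26 downward, while Dusp5 spread from 3.86 to 63.7 CPM over all mice.

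Spry2 (chromosome 14, 105891947 to 105896819), a family member with the same inhibitory action, stayed low at 1.33 ± 0.631 CPM in refed DT, 0.79 ± 0.404 CPM in refed control, 0.749 ± 0.423 CPM in fasted DT and 1.14 ± 0.491 CPM in fasted control mice. Ranges of all groups overlapped. Its refed minus fasted log2 fold change was 0.83 ± 0.43 in DT mice and -0.53 ± 0.47 in control mice. The difference between these, 1.36 ± 0.63, had an unadjusted p of 0.0429 in the edgeR fit and an adjusted p of 0.692, and was not called. Spry1 (chromosome 3, 37639947 to 37644599) had no count in 7 of 22 libraries, fewer than 3 counts in 13 and at most 0.863 CPM. Spry1 was not tested for any difference, and a gene model on the opposite strand overlaps 710 of its bases.

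Spred1 (chromosome 2, 117121071 to 117182279) encodes a protein that brings neurofibromin, an inactivator of Ras, to the membrane. It had no count in 2 libraries and at most 1.32 CPM, with means of 0.387, 0.32, 0.527 and 0.322 CPM in refed DT, refed control, fasted DT and fasted control mice. Spred2 (chromosome 11, 19924442 to 20024026), its close relative, was the main Spred transcript. Spred2 averaged 6.23 ± 2.00 CPM in refed DT, 6.05 ± 0.682 CPM in refed control, 4.30 ± 1.60 CPM in fasted DT and 6.20 ± 1.38 CPM in fasted control mice, so that fasted DT mice had the lowest mean, with overlapping ranges. The refed minus fasted log2 fold change of Spred2 in DT mice was 0.53 ± 0.24 (edgeR, adjusted p = 0.114), and the DT minus control log2 fold change in fasted mice was -0.53 ± 0.25 (edgeR, adjusted p = 0.597).

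Dusp6 (chromosome 10, 99263231 to 99267489) encodes the cytoplasmic phosphatase that acts on ERK and is a classical ERK target. Refed DT mice had 1.74, 13.9, 8.8, 12.3, 10.4 and 19.8 CPM, against 6, 3.87, 1.32, 1.8, 2.41 and 3.24 CPM in fasted DT mice. Refed control mice had 7.52, 14.6, 7.87, 6.74 and 5.57 CPM, against 4.53, 2.74, 4.44, 2.75 and 2.33 CPM in fasted control mice. The control groups did not overlap, as in 10.4% of tested genes in this direction, and the DT groups overlapped through the low value of refed DT mouse 13. The refed minus fasted log2 fold change was 1.85 ± 0.41 in DT mice (edgeR, adjusted p = 0.00247) and 1.33 ± 0.45 in control mice (edgeR, adjusted p = 0.0345). The value in DT mice was 2.14 without refed DT mouse 13 and 1.61 without refed DT mouse 20. The call in control mice was lost without refed control mouse 18, which held the highest level (log2 fold change 1.05, adjusted p = 0.120 with edgeR), without any 1 of refed control mouse 19 and fasted control mice 2, 4 and 5, with limma voom (adjusted p = 0.0529) and without the filter on low counts (adjusted p = 0.0592). The average over DT and control mice, 1.59 ± 0.31 (edgeR, adjusted p = 0.000279), was called in all 33 alternatives, where its adjusted p reached at most 0.000823.

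Dusp4 (chromosome 8, 34807610 to 34819894) encodes an inducible nuclear phosphatase for ERK and JNK. Refed DT mice had 1.55, 14.6, 10.4, 11.5, 16.5 and 17.2 CPM, against 5.9, 2.92, 2.12, 6.36, 4.65 and 5.18 CPM in fasted DT mice. Refed control mice had 13.6, 18.5, 12.9, 15.4 and 12.6 CPM, against 9.01, 16.1, 10.1, 7.58 and 11.2 CPM in fasted control mice. All refed DT mice except mouse 13 were above all fasted DT mice, whereas fasted control mouse 2 lay within the refed control range. The refed minus fasted log2 fold change was 1.41 ± 0.36 in DT mice (edgeR, adjusted p = 0.00683; 1.70 without mouse 13) and 0.44 ± 0.38 in control mice (edgeR, adjusted p = 0.453). The difference between these feeding effects was 0.97 ± 0.52 (edgeR, adjusted p = 0.744), so they were not shown to differ.

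Dusp26 (chromosome 8, 31089527 to 31097046) encodes an atypical phosphatase found mainly in neural and neuroendocrine tissue, and it moved the opposite way. Refed DT mice had 4.84, 20.9, 19.4, 16.9, 17.1 and 4.18 CPM, against 24.3, 32.7, 42.4, 38.7, 41.3 and 73.9 CPM in fasted DT mice. Refed control mice had 11.7, 11.5, 6.34, 2.17 and 2.46 CPM, against 52.1, 42.7, 76.3, 34 and 39.9 CPM in fasted control mice. Every refed mouse was below every fasted mouse, as in 2.56% of tested genes. The refed minus fasted log2 fold change was -1.60 ± 0.44 in DT mice (edgeR, adjusted p = 0.0112) and -2.84 ± 0.51 in control mice (edgeR, adjusted p = 0.000417). Refed DT mice 13 and 20 held the lowest values of their group. Without both, the value in DT mice was -1.10 and was no longer called (edgeR, adjusted p = 0.0513).

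Dusp1 (chromosome 17, 26505591 to 26508472) encodes a nuclear phosphatase for p38, JNK and ERK and is an immediate-early gene. It averaged 37.7 ± 13.5 CPM in refed DT, 41.5 ± 12.1 CPM in refed control, 50.4 ± 26.4 CPM in fasted DT and 39.97 ± 11.99 CPM in fasted control mice. The groups overlapped in every comparison, and the average feeding effect was -0.18 ± 0.25 on the log2 scale (edgeR, adjusted p = 0.596). In the GENCODE annotation Dusp1 has a longer span, 26505590 to 26562128. That longer model overlaps Ergic1 on the opposite strand by 640 bases and further gene models. Whether these overlaps reach the shorter span given above was not tested. Whether counting used strand, and which annotation it used, is not stated, so reads may be divided between these genes.

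**Figure D2:**
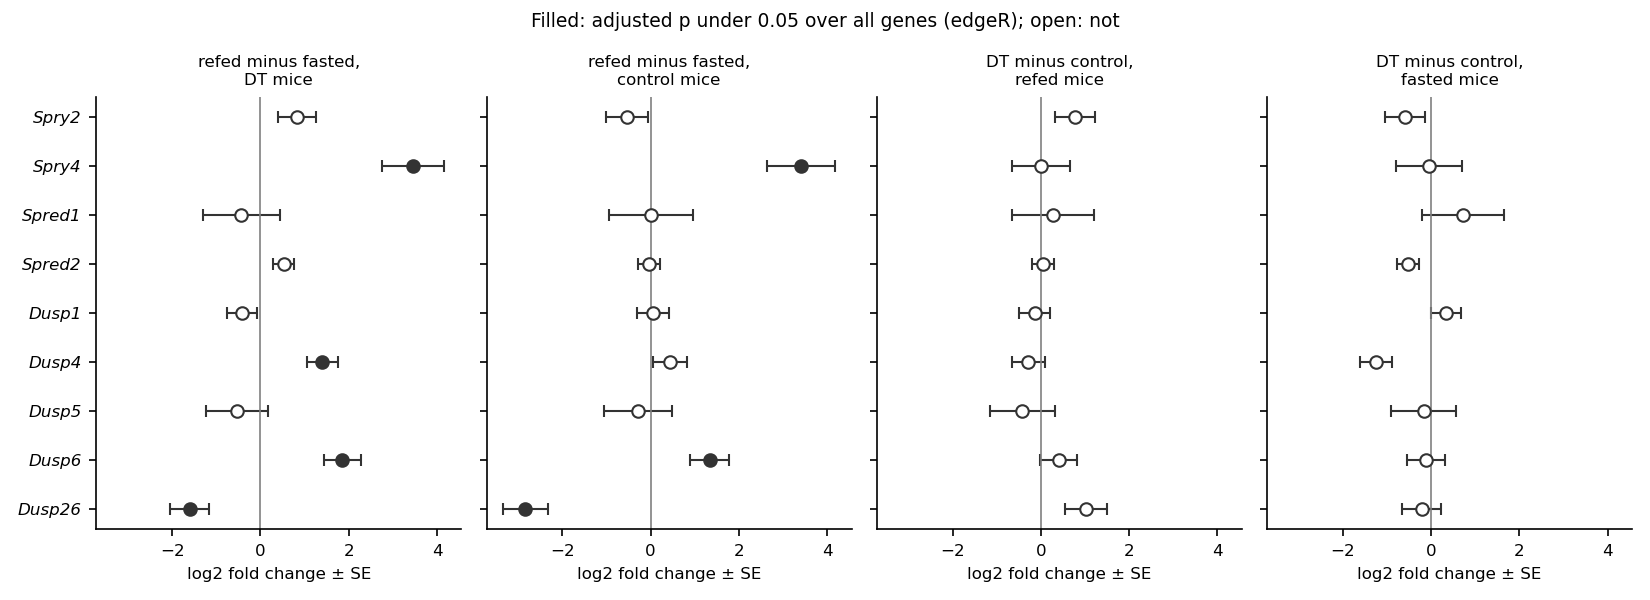
Log2 fold changes with SE of the 9 tested genes for refed minus fasted in DT and control mice and for DT minus control in refed and fasted mice; filled points have an adjusted p under 0.05 in edgeR. Filled points appear in the feeding panels only: Spry4, Dusp6 and Dusp26 in both, and Dusp4 in DT mice.

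Dusp5 (chromosome 19, 53529145 to 53541809) encodes a nuclear phosphatase specific for ERK and varied more within groups than between them. Refed DT mice had 13.7, 21.9, 21.1, 5.12, 42.2 and 17 CPM, and refed control mice 23.7, 43.8, 38, 8.48 and 20.8 CPM. Fasted DT mice had 6.55, 4.58, 3.86, 51.6, 44.5 and 63.7 CPM, and fasted control mice 47.6, 57, 45.5, 6.39 and 8.04 CPM. Each fasted group was thus split into mice under 9 CPM and mice above 44 CPM, with none between. The average feeding effect was -0.41 ± 0.52 on the log2 scale (edgeR, adjusted p = 0.566).

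This split followed an axis shared by many genes. The leading principal component of the deviations from group means held 33.4% of the variance of 10665 genes, Dusp5 among them, and the deviations of Dusp5 had a Pearson r of 0.989 with it over 22 mice. For the other 8 tested members the r was between 0.0626 (Dusp6) and 0.512 (Spred1). Of 10664 other genes, 241 (2.26%) had an r above 0.9 with Dusp5 in log2 CPM, a measure that includes the group differences. Among the genes most alike, which were looked up after these values were seen, was Lamp1, a lysosomal membrane protein gene, with an r of 0.979 in log2 CPM. Because the component is built from deviations from group means, its scores are centred in every group and say nothing of differences between groups, and its source was not tested. An antisense gene overlaps 547 bases of Dusp5 in the GENCODE annotation, where Dusp5 spans 53529109 to 53542431.

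**Figure D3:**
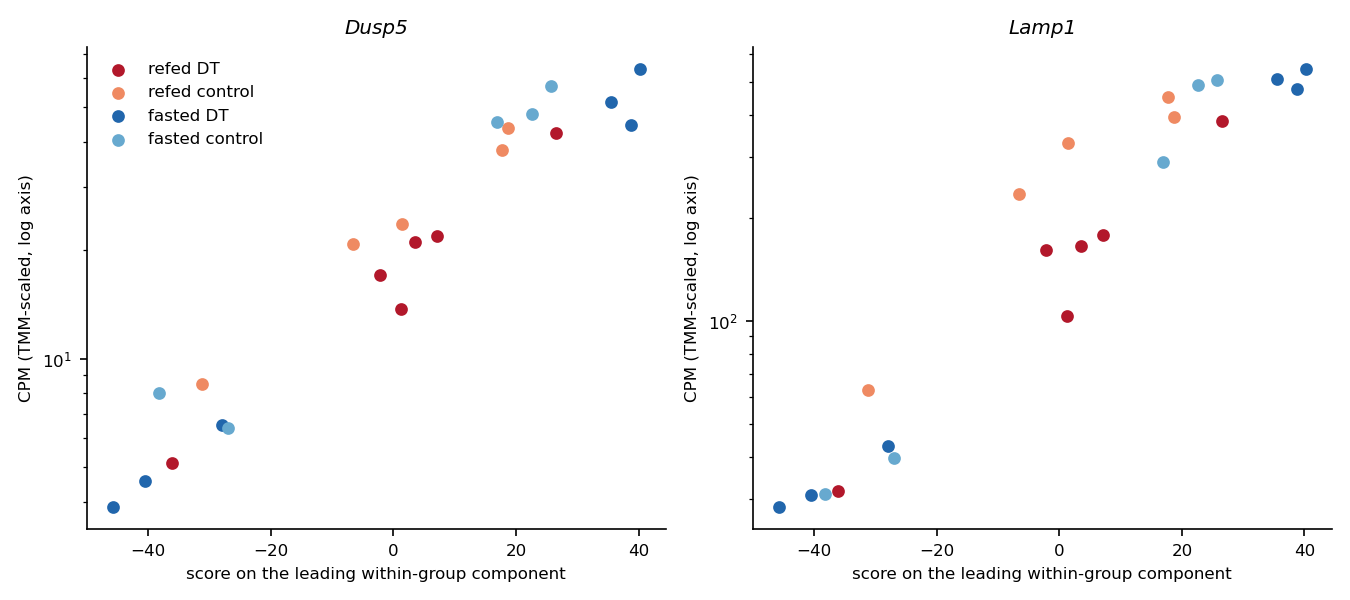
Level of Dusp5 and of Lamp1 in each of the 22 mice (CPM, log axis) against the mouse's score on the leading within-group component, coloured by group. Both genes were higher in mice with high than with low scores in every group, with Dusp5 between 3.86 and 63.7 CPM and Lamp1 between 28.5 and 544 CPM.

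Between DT and control mice, 0 of the 9 tested genes were called in the fasted state, 0 in the refed state, 0 for the average and 0 for the difference between feeding states, with edgeR, DESeq2 and limma voom alike. At an unadjusted p under 0.05 in edgeR the counts were 2, 1, 1 and 1 of 9, beside 1172, 1410, 1678 and 1004 of all 14064 tested genes. At the adjusted threshold the background was sparse, with 0.0284%, 0.0356%, 0.206% and 0.00711% of tested genes called in these comparisons by edgeR. These counts say that differences of the size seen were not called at this number of mice, and they do not show equal levels.

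Dusp4 had the smallest p of the members in fasted mice. Every fasted DT mouse (2.12 to 6.36 CPM) was below every fasted control mouse (7.58 to 16.1 CPM), as in 0.775% of tested genes, and the means were 4.52 ± 1.68 and 10.8 ± 3.24 CPM. The DT minus control log2 fold change was -1.25 ± 0.37, with an unadjusted p of 0.00291 and an adjusted p of 0.317 in edgeR, so it was not called. It was called without refed DT mouse 13, which enters through the shared estimate of spread (log2 fold change -1.27, adjusted p = 0.0352), and over all alternatives the adjusted p lay between 0.0352 and 0.641. After refeeding the means were 11.95 ± 5.76 CPM in DT and 14.6 ± 2.42 CPM in control mice, with overlapping ranges and a log2 fold change of -0.28 ± 0.37 (edgeR, adjusted p = 0.841), which was -0.04 without refed DT mouse 13.

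For Dusp26 the DT minus control log2 fold change in refed mice was 1.02 ± 0.47, with an unadjusted p of 0.0408 and an adjusted p of 0.471 in edgeR. Without refed DT mice 13 and 20 it was 1.45 (edgeR, adjusted p = 0.105) and again not called. Refed DT mice averaged 13.9 ± 7.41 CPM and refed control mice 6.83 ± 4.64 CPM, with overlapping ranges. Dusp6 differed by 0.40 ± 0.42 on the log2 scale in refed and by -0.12 ± 0.43 in fasted mice between DT and control, and the value in refed mice was 0.64 without mouse 13 and 0.16 without mouse 20. Dusp5 was called lower in DT mice only when the leading within-group component entered the fit as a covariate, an alternative added after the values were seen: the average DT effect was then -0.50 ± 0.09 (edgeR, adjusted p = 0.0205), against -0.29 ± 0.52 without it. Dusp5 is among the 10665 genes from which that component was computed, and its deviations had an r of 0.989 with it. The covariate therefore takes up most of the gene's spread within groups, which narrows the SE. A component computed without Dusp5 was not tested, and no conclusion about ablation is drawn from the call.

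Per kilobase of annotated exon, which allows genes to be set side by side, the mean over all mice was 12.9 CPM for Dusp1, 12.1 CPM for Dusp26, 10.9 CPM for Dusp5, 3.75 CPM for Dusp4, 2.10 CPM for Dusp6, 1.34 CPM for Spry4, 1.22 CPM for Spred2, 0.482 CPM for Spry2, 0.0741 CPM for Spry1 and 0.0582 CPM for Spred1. In these means over all mice the phosphatase transcripts were above the Sprouty and Spred transcripts. The order differed between groups: Spred2, at 1.34 in fasted control mice, stood above Dusp6, at 1.07 in the same mice. Dusp26 stood at 2.96 CPM per kilobase in refed control mice and at 21.3 in fasted control mice, where its mean was the highest of the 10. Spry4 stood at 2.44 in both refed groups, against 0.222 in fasted DT and 0.233 in fasted control mice. Within Dusp1, Dusp5, Spry1, Spry2, Spred1 and Spred2, groups next to each other in the order of means overlapped throughout.

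**Figure D4:**
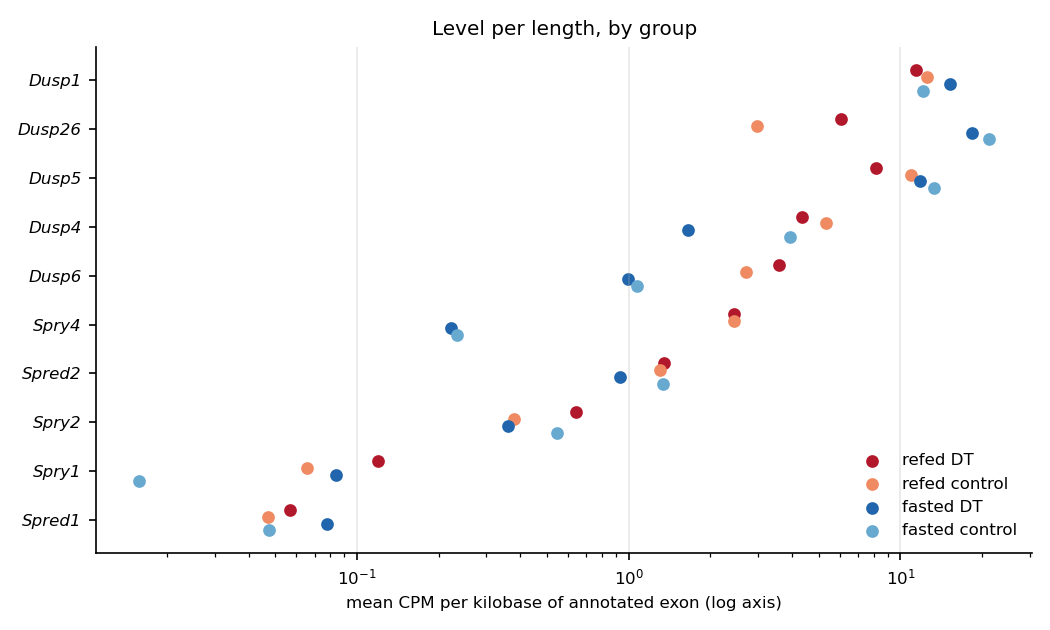
Mean level of each gene in the 4 groups, in CPM per kilobase of annotated exon on a log axis. Dusp26 and Spry4 show the widest gaps between refed and fasted groups, and the groups of Dusp1 lie together between 11.4 and 15.2.

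For the members with the smallest p in the average feeding effect, the genes most alike were taken by Pearson r of log2 CPM over the 22 mice, a measure that includes the group differences. Nearest to Spry4 were Polr3d, a subunit of RNA polymerase III (r = 0.905), the clock gene Per2 (r = 0.90) and Sik1, a salt-inducible kinase (r = 0.894). With group means removed these r were 0.553, 0.601 and 0.668. Nearest to Dusp26 were Ubtf, a transcription factor of ribosomal DNA (r = 0.927), Glb1, the lysosomal β-galactosidase (r = 0.905), and Mast1, a serine/threonine kinase (r = 0.904). Nearest to Dusp6 were Mrpl19, a mitochondrial ribosomal protein gene (r = 0.898), the mitochondrial inner membrane gene Letm1 (r = 0.894) and Ehd1, an endocytic recycling gene (r = 0.891). For Ehd1 the r was 0.890 with group means removed, so this likeness was as large within groups.

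The remaining pathway genes were taken from lists of textbook components. Of the other Sprouty and Spred genes, Spred3 was not called (average feeding log2 fold change -0.56 ± 0.34, edgeR adjusted p = 0.205). Spry3 could not be tested, as the count table holds no gene under that name. Of 4 tested other MAP kinase phosphatases, 1 was called higher and 0 lower after refeeding. This was Dusp10, a phosphatase for JNK and p38, at 12.9 ± 4.17 CPM in refed DT, 14.2 ± 2.62 CPM in refed control, 8.55 ± 0.887 CPM in fasted DT and 9.37 ± 2.86 CPM in fasted control mice. Of 10 tested atypical DUSPs, 3 were called higher and 2 lower. Dusp3 led them with an average log2 fold change of 1.06 ± 0.11 (edgeR, adjusted p = 2.45e-07), and Dusp15 was lower by -1.22 ± 0.33 (edgeR, adjusted p = 0.00495).

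Among transcripts known as ERK outputs, 3 of 7 tested were called higher and 1 lower. Etv5, an ETS factor induced by ERK in many tissues, averaged 39.2 ± 13.4 CPM in refed DT, 52.9 ± 10.5 CPM in refed control, 9.56 ± 4.96 CPM in fasted DT and 14.1 ± 5.1 CPM in fasted control mice. Its average feeding effect was 1.97 ± 0.24 on the log2 scale, beside 1.26 ± 0.19 for the related Etv1 and 1.20 ± 0.13 for the cyclin gene Ccnd1, with edgeR adjusted p-values of 1.65e-06, 1.72e-05 and 2.73e-07. These 3 genes moved in the direction of Spry4, Dusp6 and Dusp4, while Ier3 fell by 0.56 on the log2 scale. They were the only 3 of the 7 tested ERK outputs with a positive average feeding effect. The list median was -0.12, against -0.06 over all tested genes, so the list as a whole did not move with these members. Immediate-early genes were divided, with 5 of 12 called higher and 3 lower. Sik1 (3.54 ± 0.42), Nr4a2 (2.57 ± 0.34) and Crem (2.24 ± 0.16) were among the higher, and Fosb (-0.80 ± 0.20) among the lower.

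Of the ERK cascade itself, 4 of 23 tested genes were called higher and 4 lower. The largest of these differences was -1.46 ± 0.48 on the log2 scale. Mapk3, which encodes ERK1, was lower by -0.47 ± 0.07 (edgeR, adjusted p = 3.23e-05) and Araf by -0.40 ± 0.07, while Ptpn11, the phosphatase that links receptors to Ras, was higher by 0.52 ± 0.09. Receptor tyrosine kinases had 2 of 14 called higher and 6 lower. Kit was lowest at -2.26 ± 0.49, the insulin receptor gene Insr stood at -0.46 ± 0.14, and Igf1r was higher at 0.99 ± 0.24. Other inhibitors of receptors and Ras had 2 of 10 called each way, and the JNK and p38 cascade 2 of 13 higher and 1 lower. The shares called in these lists stand beside the same 38.9% of all tested genes. In the average DT effect, 1 gene of these pathway lists was called: Fosb, at 5.36 ± 2.57 CPM in refed DT against 2.43 ± 0.503 CPM in refed control mice and at 8.51 ± 1.96 CPM in fasted DT against 4.62 ± 1 CPM in fasted control mice (average log2 fold change 1.00 ± 0.20, edgeR adjusted p = 0.0353).

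**Figure D5:**
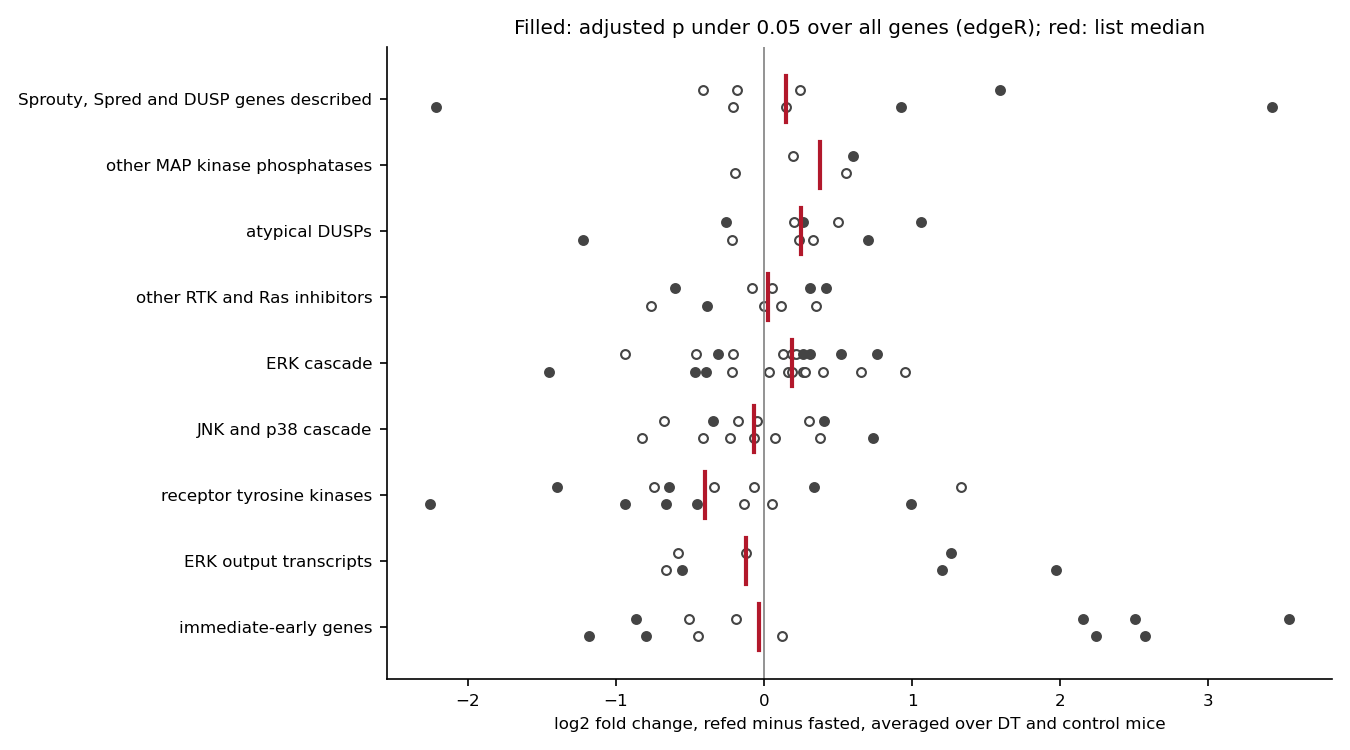
Average feeding effect (log2, refed minus fasted) of every tested gene of the Sprouty, Spred and DUSP set and of the other pathway lists, 1 row per list; filled points have an adjusted p under 0.05 in edgeR and red bars are list medians. Spry4 at 3.43 and Dusp26 at -2.22 are the ends of the first row, and most points of the ERK cascade lie within 1 of 0.

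Summed acinar markers ranged from 40.9 to 22252 CPM in refed DT, 857 to 14852 CPM in refed control, 68.8 to 12804 CPM in fasted DT and 86.9 to 8921 CPM in fasted control mice. All 7 acinar markers had a positive average feeding effect and 0 were called in edgeR. With the acinar level as a covariate the same numbers of members were called in every comparison, with an average feeding effect of 3.44 for Spry4, 1.61 for Dusp6, 0.93 for Dusp4 and -2.13 for Dusp26. Endothelial cells, in which Sprouty and Dusp genes are also known to be expressed, left few counts: summed markers were 4.14 to 8.23 CPM in refed DT, 2.95 to 9.19 CPM in refed control, 3.61 to 6.99 CPM in fasted DT and 3.55 to 7.14 CPM in fasted control mice. Of the 7 endothelial markers, Cdh5, Emcn, Kdr, Flt1, Plvap and Pecam1 had no count in 18, 17, 14, 13, 6 and 2 of 22 libraries, and Esam was present in all, at 2.36 to 6.10 CPM. The part of endothelial RNA in the members' values was not tested beyond a fit with an endothelial covariate. That covariate was the mean log2 CPM of only the 3 markers that passed the filter, Pecam1, Plvap and Esam. The fit called the same numbers of members. Summed immune markers were 10.9 to 424 CPM in refed DT and 8.68 to 48.4 CPM in refed control mice. In fasted mice they were 25.7 to 333 CPM with DT and 25.8 to 170 CPM in controls. The part of immune RNA in the members' values was not tested.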

How the data were processed

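The deposited table holds read counts per gene, 1 column for each of 22 mice and 52327 gene symbols, and 0 columns belong to no mouse. Per the submitters' processing notes, the authors worked on build GRCm38.p6 with the aligner STAR 2.7.2b, the counter HTSeq 0.9.1 and the package DESeq2 1.28.1; strand setting and annotation release are not given in the sources used here. Per the labels' protocols, SMARTer amplified cDNA was made into Nextera XT libraries and sequenced single-end. Reads had no molecular identifiers, so detection limits (3 counts) cover counting error only.

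Differences were fitted to the raw counts by edgeR 4.0.16 under R 4.3.3: filterByExpr by group (14064 genes tested, 14021 with counts not tested, 24242 without counts), TMM scaling, 1 coefficient per group, robust quasi-likelihood F tests of 7 comparisons and Benjamini-Hochberg adjustment over all tested genes at 0.05. SEs follow from the F statistic, and log2 CPM used a prior count of 2. The 7 comparisons were DT against control when fasted and when refed, refed against fasted in control and in DT mice, the difference of these, and the averages. Each library is labelled as a mouse of its own number, and group membership came from the labels. The fits were tested on simulated counts with known changes of 1.5-fold, 2-fold and 4-fold. For DT against control in refed mice, 16.4%, 53.7% and 92.4% of these were recovered. For refed against fasted control mice the shares were 14.9%, 40.3% and 95.5%, so many changes of 2-fold or less would be missed. DESeq2 1.42.0 and limma 3.58.1 voom served as alternatives, beside other scalings, no filter, fits of the compared groups alone, marker covariates and libraries left out.

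The members, pathway lists and marker lists were chosen with earlier results of these data known. All members are named. From each pathway list, up to 4 genes with the smallest p in the average feeding effect and up to 2 in the average DT effect could be named. For the 3 members with the smallest feeding p, the 3 genes most alike (mean log2 CPM of at least 1) are named. The genes like Dusp5, the overlapping genes and the marker genes at 0 were named after their values were seen. Upstream sequences are from RefSeq on GRCm38.p6.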

Additional observations from a re-analysis of the deposited data

Results flagged for a closer look

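Single mice far from the rest of their group were looked for in 39 groups of 5 or 6 mice (each of the 10 genes in each group, except where no mouse was above the detection limit), and 4 were found, where chance gives about 1 in 20 groups. Dusp6 reached 14.6 CPM in refed control mouse 18, far above the other 4 mice of that group, and leaving out this mouse ended the Dusp6 call in control mice. Dusp26 reached 73.9 CPM in fasted DT mouse 11. Spred1 reached 1.11 CPM in fasted control mouse 1, and Spry1 reached 0.863 CPM in refed control mouse 18, both from few counts. What sets these mice apart was not tested.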

How the results depend on the processing

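No paired analysis was possible because every mouse number occurs once, in 1 group only. The counts of members called were the same as reported in 459 recomputations and differed in 11, and no call changed direction. In control mice, refed against fasted, the number called higher was 1 instead of 2 without the filter on low counts and with limma voom, and it ranged from 1 to 2 with single libraries left out, always through Dusp6. In DT mice, refed against fasted, the number called lower was 0 instead of 1 without refed DT mice 13 and 20, through Dusp26. In fasted mice, DT against control, the number called lower was 1 instead of 0 without refed DT mice 13 and 20, and it ranged from 0 to 1 with single libraries left out, through Dusp4. For the average DT effect it was 1 instead of 0 with the leading within-group component, computed with Dusp5 among its genes, as a covariate, through Dusp5. The other scalings, DESeq2, the fit without robust shrinkage and the fit of the compared groups alone kept all counts of members. Depth limits Spry1 and Spred1 throughout, and Spry4 in fasted mice.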
